A study of Mus musculus with 18 samples.

Results

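Collagens are the proteins of the extracellular matrix whose 3 chains wind into a triple helix, and each chain is the product of its own gene. Here they are the 44 symbols of the form Col, number, a, number among the 33641 genes measured, covered by 216 of 105129 transcripts. A chain was reported where its gene reached 1 TPM (a relative abundance per transcript length that sums to the same total in each library) in at least 3 libraries of a tissue. This held for 29 chains: 26 in muscle and 26 in adipose tissue, of which 23 passed in both. Col7a1, Col22a1 and Col24a1 passed in muscle only, and Col4a6, Col6a5 and Col23a1 in adipose tissue only. The other 15 chains passed in neither.

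Messenger RNA of the quadriceps, a limb muscle, and of white adipose tissue was measured in 9 male wild-type mice of the inbred strain DBA/2J, of about 20 weeks of age per the labels. All were on high-fat diet for 12 weeks before treatment and stayed on it for the 12 weeks of treatment, so there is no lean or untreated group. Diet and treatment together exceed the labelled age of about 20 weeks, so that age cannot be the age at collection if these times hold. In each tissue 3 mice had daily vehicle injections, 3 had prednisone once weekly and 3 had prednisone once daily, the last at 1 mg/kg per intraperitoneal injection as in the weekly group. Prednisone is a synthetic glucocorticoid, and the tissues were collected 24 hours after injections ended. The labels and the table hold 3 daily adipose libraries, whereas the design text of the series counts fewer.

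Type I, III and V collagens build the banded fibrils that carry tension, with type I as the bulk, type III as its partner in pliable tissue, and type V at the core setting fibril width. Type IV forms the basement membrane sheet that wraps muscle fibres, adipocytes and capillaries, type VI forms beaded filaments next to that sheet, and fibril-associated collagens coat the fibril surface. In muscle and fat most fibrillar collagen comes from fibroblasts and their progenitors, and collagen excess is the hallmark of fibrosis.

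The 4 chains below are among those that passed in a comparison between regimens: Col3a1 and Col8a1 in muscle, and Col3a1, Col5a3 and Col6a5 in adipose tissue. Col6a6, Col12a1 and Col14a1 also passed in adipose tissue, but no window free of annotated exons was available for them. Each sequence is the 250 bases before the gene's annotated start, from RefSeq on GRCm38.p6, written 5′ to 3′ on the gene's strand. Capitals mark the TATA box letters TATAAA, the CCAAT box letters CCAAT and the glucocorticoid receptor half-site letters TGTTCT, searched on both strands. Among 32851 windows of the same length 12.4% held TATAAA, 33.8% held CCAAT and 16.1% held TGTTCT. No window shown overlaps an annotated exon.
Col3a1, chr1:45311288-45311537, plus strand: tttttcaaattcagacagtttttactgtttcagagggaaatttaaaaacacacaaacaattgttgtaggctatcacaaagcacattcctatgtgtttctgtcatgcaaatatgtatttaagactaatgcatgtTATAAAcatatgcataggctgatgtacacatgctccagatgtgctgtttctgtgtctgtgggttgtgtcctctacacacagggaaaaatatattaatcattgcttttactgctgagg
Col8a1, chr16:57754738-57754987, minus strand: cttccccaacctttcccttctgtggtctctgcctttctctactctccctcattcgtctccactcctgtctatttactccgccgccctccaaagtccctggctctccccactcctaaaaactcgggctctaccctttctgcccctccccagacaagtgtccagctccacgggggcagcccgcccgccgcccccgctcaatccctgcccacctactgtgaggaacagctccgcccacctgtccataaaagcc
Col6a5, chr9:105960644-105960893, minus strand: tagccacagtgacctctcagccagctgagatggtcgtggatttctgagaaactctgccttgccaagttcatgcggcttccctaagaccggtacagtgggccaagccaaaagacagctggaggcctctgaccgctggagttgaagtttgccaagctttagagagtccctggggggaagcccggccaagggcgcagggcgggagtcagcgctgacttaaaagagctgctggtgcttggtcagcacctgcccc
Col5a3, chr9:20815068-20815317, minus strand: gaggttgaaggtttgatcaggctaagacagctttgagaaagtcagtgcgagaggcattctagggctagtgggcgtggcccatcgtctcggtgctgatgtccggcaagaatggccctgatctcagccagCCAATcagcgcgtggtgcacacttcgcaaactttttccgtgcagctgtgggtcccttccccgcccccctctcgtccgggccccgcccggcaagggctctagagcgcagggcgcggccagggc
TATAAA lay 117 bases before the start of Col3a1 and CCAAT lay 122 bases before that of Col5a3. Col8a1 and Col6a5 held none of these letters, and none of the 4 windows held the half-site letters. The Col3a1 window had a GC content of 35.2%, against 62.8% for Col5a3, 60.8% for Col8a1 and 58.8% for Col6a5.

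Before the results, 3 features of the libraries bear on the collagen values. Between 11781 and 12200 genes reached 1 TPM in a muscle library and between 13413 and 14076 in an adipose library. The depth is unknown, because TPM values carry no read totals. Skeletal muscle fibre markers summed to 111750 to 130537 TPM in muscle and adipocyte markers to 35555 to 39619 TPM in adipose tissue, as the labels of both tissues say. In the adipose libraries weekly 2, weekly 3 and daily 2, the summed TPM of skeletal muscle fibre markers was 1714, 1262 and 1112, against 267 to 383 in the other 6. The third library of each group lay between the other 2 for 40.9% to 52.3% of all genes tested and for 50% to 88.5% of collagen chains. For any gene 1 of the 3 libraries must lie in the middle, and chains that vary together repeat the same order of libraries. The labels do not account for the pattern over all genes. Results on collagen are therefore also given without the 3 adipose libraries and without the third libraries. Daily 1 was the highest of 9 muscle libraries for 21 of 26 chains, and weekly 1 was the highest of 9 adipose libraries for 19 of 26. Mitochondrial genes took 12.9% to 13.5% of the TPM in vehicle adipose tissue, 14.5% to 14.8% in weekly and 15.3% to 16.9% in daily.

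In muscle the most abundant chain by TPM was Col3a1, the single chain of type III collagen, at a mean of 131 ± 22.3 TPM in vehicle mice (SD, n = 3). It was followed by Col4a1 (59.2 ± 3.48 TPM, SD, n = 3) and Col1a2 (39.4 ± 7.10 TPM, SD, n = 3). Over all 9 libraries Col6a2, Col4a2 and Col1a1 came next, with means of 33.0, 30.7 and 30.2 TPM, and these neighbours in the order did not differ beyond their spread. All 44 chains together made up 0.0430% to 0.0539% of the TPM in vehicle muscle, 0.0440% to 0.0449% after weekly and 0.0508% to 0.0824% after daily prednisone. In vehicle adipose tissue the share was 0.271% to 0.283%, and it was 0.319% to 0.405% after weekly and 0.268% to 0.333% after daily prednisone.

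By mean TPM over the 9 libraries of a tissue, Col4a1 ranked 2 in both tissues, and Col4a2 ranked 5 in muscle and 3 in adipose tissue. In vehicle adipose tissue Col4a1 (458 ± 35.5 TPM, SD, n = 3) and Col3a1 (386 ± 48.1 TPM, SD, n = 3) overlapped between libraries, and Col4a2 (300 ± 27.1 TPM, SD, n = 3) came next. Col6a2 at 262 ± 6.69 TPM, Col15a1 at 243 ± 37.2 TPM, Col6a1 at 219 ± 4.30 TPM and Col5a3 at 216 ± 10.8 TPM (SD, n = 3 each) followed. Col4a1 and Col4a2, whose starts lie 21 bases apart on opposite strands, make the heterotrimer of most basement membranes. Their ratio was 1.81 ± 0.121 in vehicle muscle and 1.53 ± 0.0687 in vehicle adipose tissue (SD, n = 3). The Col4a1 sum includes the 1170-base coding model Col4a1-206, at a mean of 27.3% in muscle and 15.5% in adipose tissue. For Col4a2 the 6450-base Col4a2-201 held 97.7% and 99.0%, so the ratio is not one of full-length RNA.

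**Figure D1:**
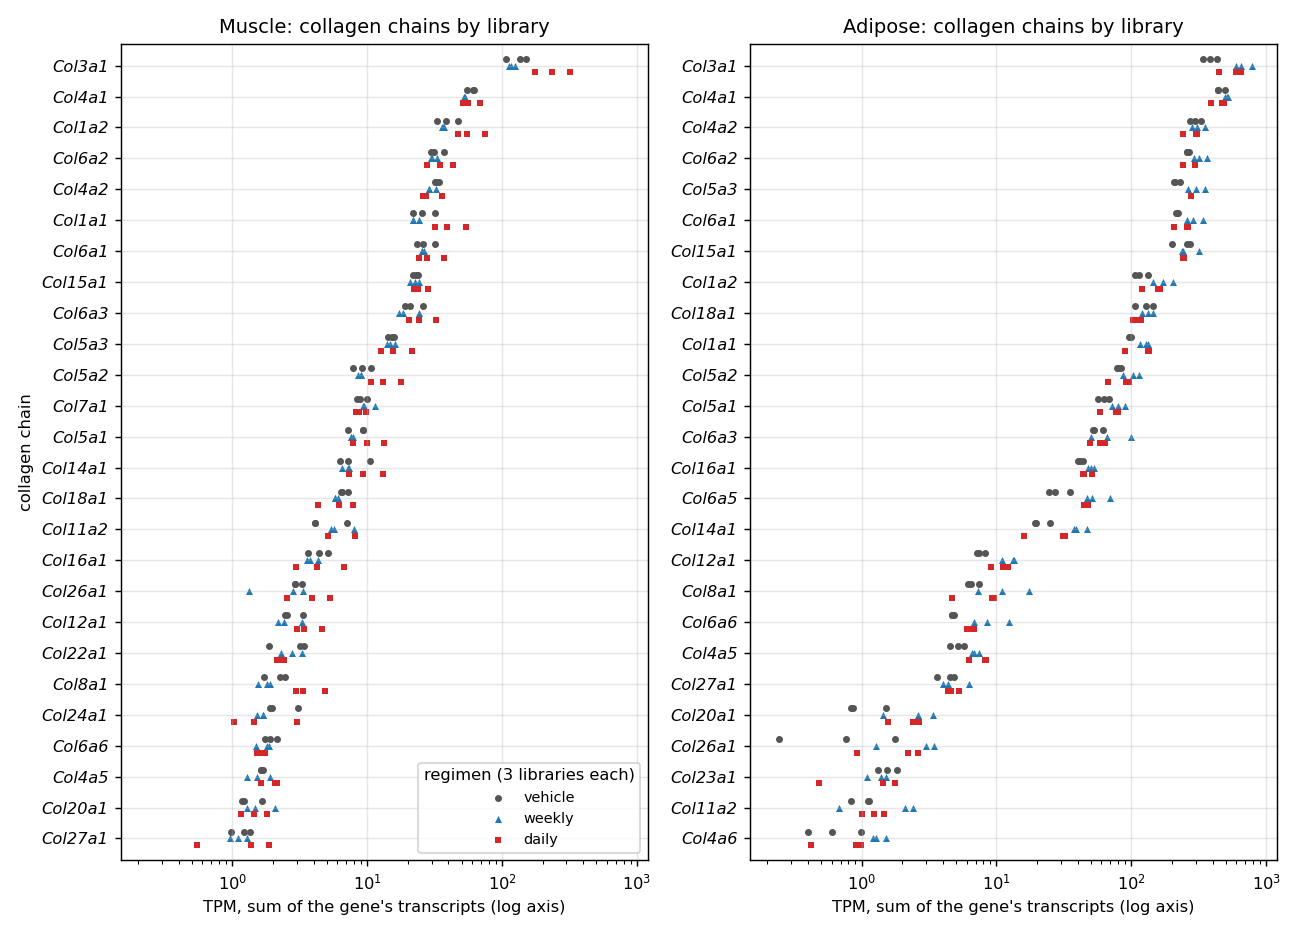
Abundance of each reported collagen chain in the 9 muscle libraries (left) and 9 adipose libraries (right), as TPM summed over the gene's transcripts on a log axis; each point is 1 library and each chain is sorted by its mean over the tissue. Col3a1 is the highest chain in both tissues, and the daily muscle libraries (red squares) of Col3a1 and Col8a1 lie to the right of the vehicle libraries (grey circles).

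Near the threshold, Col4a6 passed in adipose tissue only through the 3 weekly libraries, at 1.21, 1.51 and 1.27 TPM, while vehicle libraries held 0.404, 0.995 and 0.604 TPM. Col8a2, the partner of Col8a1, did not pass: it reached 2.43 and 2.59 TPM in weekly 1 and weekly 3 of adipose tissue and no more than 0.865 TPM in the other 7. In muscle Col27a1 was the lowest chain that passed, at a mean of 1.19 TPM over 9 libraries, and Col23a1 was the highest that did not, at 0.651 TPM. Col2a1, the main cartilage chain, had a mean of 0.00663 TPM in muscle and 0.00365 TPM in adipose tissue, and was listed at 0 in all vehicle and weekly adipose libraries.

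The TPM of a gene is a sum over transcript models, and for many chains much of it was assigned to short models. The longest coding transcript held at least 90% of the gene's TPM for 9 of 26 chains in muscle and 11 of 26 in adipose tissue, and under 50% for 12 and 10. A low share does not always mean short models, since another long coding model can hold the rest. The 3949-base Col6a2-201 held 89.0% of Col6a2 in muscle and 90.5% in adipose tissue. The 5063-base Col18a1-202 held 72.1% of Col18a1 in muscle. Col1a1, Col5a2, Col5a3, Col6a1, Col6a6 and Col8a1 were among the chains measured almost wholly by full-length models. For Col3a1 the 5564-base Col3a1-201 held a mean of 59.7% in muscle and the 737-base coding model Col3a1-205 held 38.5%. For Col6a3 a 646-base model with a retained intron, Col6a3-206, held 65.4% in muscle and 49.6% in adipose tissue. Nearly all of Col26a1 in muscle, 93.0%, came from the 578-base retained-intron model Col26a1-207, so its value says little about full-length Col26a1 RNA. Levels of such chains are sums over models of unequal length, and their order against other chains rests on how reads were assigned.

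**Figure D2:**
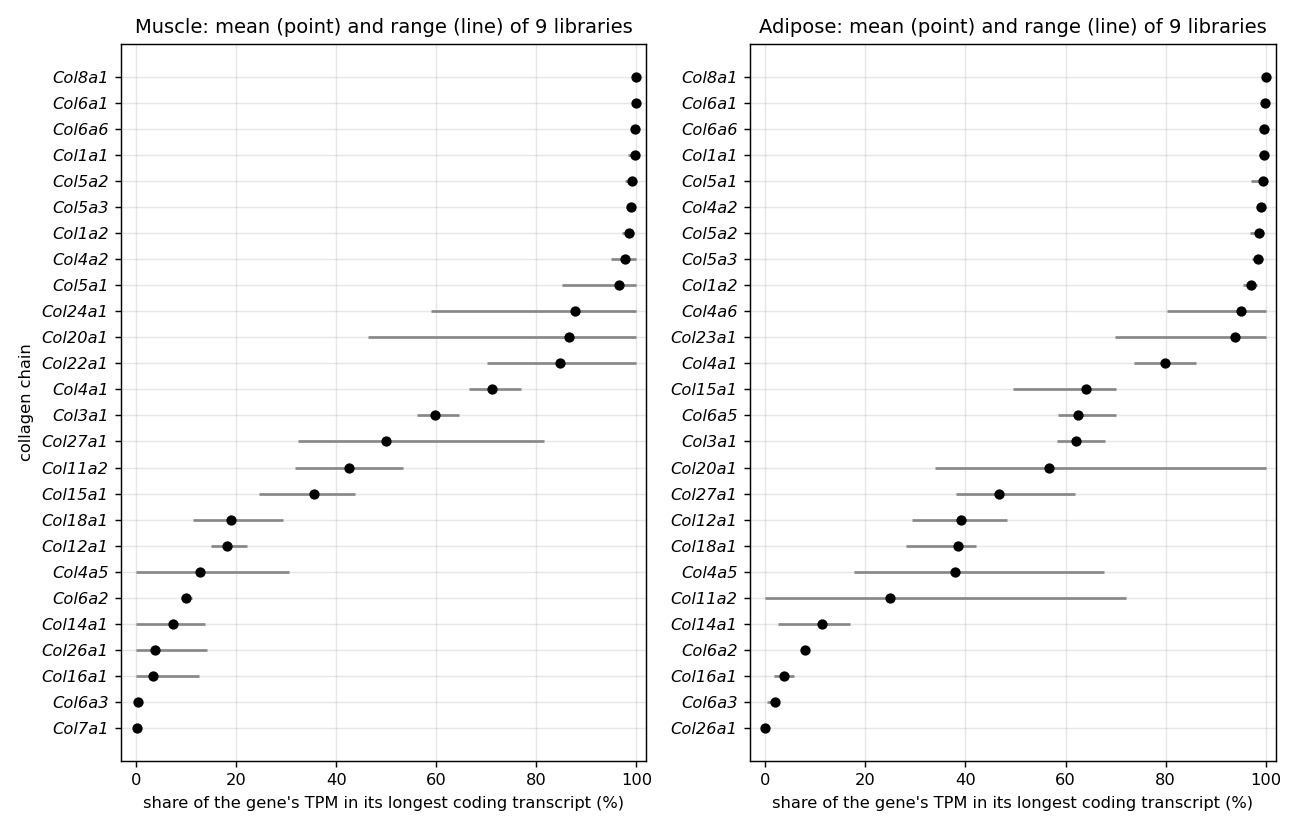
Share of each gene's summed TPM held by its longest coding transcript in muscle (left) and adipose tissue (right), in percent; points are means and lines the range over the 9 libraries of a tissue. Col8a1, Col6a1 and Col6a6 sit at the top near 100%, Col3a1 near 60%, and Col6a3, Col16a1 and Col26a1 are among the lowest in both tissues. A low share can mean short models or another long coding model, as for Col6a2.

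In vehicle mice 20 of the 23 chains tested in both tissues were lower in muscle than in adipose tissue and 2 were higher, by limma on the within-mouse difference of muscle from adipose tissue at a Benjamini-Hochberg adjusted p under 0.05. Of all 11737 genes tested, 73.9% passed as lower in muscle and 13.1% as higher, so the collagen counts are to be read against a table in which most genes were lower in muscle. In bulk tissue, here and in the comparisons of regimens, fewer cells of a type and less RNA per cell cannot be told apart. The chains' median log2 difference was -1.57, against -0.88 over all genes. With TMM scaling, which moves the median of all genes to 0.01, 17 chains were lower, 3 were higher (Col20a1 in addition), and the chains' median was -0.59. Over all genes the same scaling changed 1533 higher and 8676 lower to 4529 and 4498.

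The 5 chains with the largest differences were Col18a1, Col5a3, Col15a1, Col4a2 and Col16a1. Col18a1, a multiplexin whose C-terminal fragment is endostatin, had a mean of 127 TPM in vehicle adipose tissue against 6.69 TPM in muscle, a log2 difference of -4.05 ± 0.14 (SE). Col5a3, the type V chain known from fat and muscle, had 216 TPM against 15.01 TPM (log2 difference -3.76 ± 0.15, SE). Col15a1, the other multiplexin, followed at -3.34 ± 0.14, Col4a2 at -3.16 ± 0.10 and the fibril-associated Col16a1 at -3.01 ± 0.14 (log2 differences, SE). Adjusted p by limma lay between 5.9e-09 and 2.4e-08 for these 5. Among fibrillar chains the adipose mean was 2.94 times the muscle mean for Col3a1, 2.99 times for Col1a2 and 3.73 times for Col1a1, and 7.26, 8.75 and 14.4 times for Col5a1, Col5a2 and Col5a3.

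Col11a2, a fibrillar chain of cartilage, was higher in muscle: 7.02, 4.07 and 4.10 TPM in the vehicle mice, against 1.11, 0.841 and 1.13 TPM in their adipose tissue. Its log2 difference was 1.55 ± 0.20 (SE, limma, adjusted p = 3.5e-05). The 836-base retained-intron model Col11a2-207 held a mean of 45.3% of its sum in adipose tissue and 22.9% in muscle. The longest coding transcript of Col11a2 held 24.9% and 42.6%, so this is a difference between sums of unlike make-up. Col26a1 was higher by 1.14 ± 0.17 on the log2 scale (SE, limma, adjusted p = 0.000113), with the reservation on its short model given above. Col20a1, the only other chain above 0, differed by 0.19 ± 0.18 (SE) and did not pass (limma, adjusted p = 0.327).

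Of the 6 chains that passed in 1 tissue only, Col23a1, a transmembrane collagen, was nearest in level, with 1.57 TPM in vehicle adipose tissue and 0.867 TPM in muscle. Col6a5, an alternative to Col6a3 in type VI collagen, had a mean of 28.9 TPM in vehicle adipose tissue and 0.118 TPM in muscle. Col22a1, a fibril-associated chain of tissue junctions such as the myotendinous junction, had 1.88, 3.37 and 3.19 TPM in vehicle muscle and a mean of 0.111 TPM in adipose tissue. Col7a1, the anchoring fibril chain, had a mean of 9.07 TPM in muscle and 0.563 TPM in adipose tissue, with 37.3% of the muscle value in the retained-intron model Col7a1-208 and 27.7% in the retained-intron model Col7a1-203. The fibrillar Col24a1 had 2.30 TPM in muscle and 0.0742 TPM in adipose tissue.

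In muscle daily prednisone was compared with vehicle. Col3a1, a fibrillar chain, and Col8a1, a network chain, rose. No other fibrillar chain, basement membrane chain or type VI chain passed. Of 26 chains 2 passed as higher and 0 as lower (limma, adjusted p under 0.05), while 1.91% of all 12246 genes passed as higher. The chains' median log2 difference was 0.11, against -0.09 over all genes, and 19 of 26 were above 0.

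Col3a1 (chr1:45311538-45349706 on GRCm38, plus strand) measured 107, 152 and 135 TPM in the vehicle libraries, 124, 112 and 117 TPM in the weekly and 318, 177 and 233 TPM in the daily libraries. All daily libraries lay above all others, with daily 1 the highest. The log2 difference of daily from vehicle was 0.86 ± 0.19 (SE, limma, adjusted p = 0.0202), a ratio of mean TPM of 1.85. Without daily 1 it was 0.64 ± 0.15 (SE) and still passed (limma, adjusted p = 0.0292). Counted by the longest coding transcript alone, an alternative chosen after seeing the data, it was 0.78 (limma, adjusted p = 0.0373).

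Col8a1 (chr16:57624258-57754737, minus strand), a short-chain network collagen of vessel walls, was far less abundant. Vehicle libraries held 1.72, 2.47 and 2.27 TPM, weekly libraries 1.89, 1.55 and 1.82 TPM, and daily libraries 4.86, 2.98 and 3.37 TPM. Again the daily libraries did not overlap with the others, and Col8a1 rose by 0.58 ± 0.15 on the log2(TPM + 1) scale (SE, limma, adjusted p = 0.0381). That scale understates changes at such low values: the ratio of mean TPM was 1.74. Without daily 1 the difference was 0.41 ± 0.13 (SE) and no longer passed (limma, adjusted p = 0.0686).

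The chains of type I collagen, like Col3a1, were highest in daily 1. Col1a1 measured 21.8, 31.8 and 25.4 TPM in vehicle, 21.97, 24.3 and 21.7 TPM in weekly and 54.1, 31.8 and 38.8 TPM in daily muscle. The groups of vehicle and daily mice were separated by less than the last digit printed, since daily 2 lay level with vehicle 2. Its log2 difference was 0.62 ± 0.18 (SE) and missed the threshold (limma, adjusted p = 0.0534). Col1a2, at 32.7, 46.9 and 38.6 TPM in vehicle and 74.5, 47.4 and 55.0 TPM in daily muscle, differed by 0.56 ± 0.16 (SE, limma, adjusted p = 0.0508). Col5a2, the neighbour of Col3a1 at 24614 bases on the opposite strand, had 7.85, 10.7 and 9.12 TPM in vehicle and 17.7, 10.7 and 13.2 TPM in daily muscle (log2 difference 0.52 ± 0.16, SE, limma, adjusted p = 0.0604). With TMM scaling these 3 chains also passed, which made 5 of 26 higher, while 3% of all genes passed as higher. Under that scaling all genes split into 367 higher and 446 lower, against 234 and 1440 without it.

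Of the 26 chains, 5 had daily libraries all above the vehicle libraries (Col1a1, Col1a2, Col3a1, Col5a2 and Col8a1), as did 6.02% of all genes. The other members of type V stayed closer to vehicle, with log2 differences of 0.22 ± 0.16 for Col5a1 and 0.10 ± 0.15 for Col5a3 (SE). Col4a1 measured 55.2, 60.9 and 61.5 TPM in vehicle and 69.0, 50.9 and 56.3 TPM in daily muscle, and Col4a2 32.5, 33.9 and 31.7 TPM against 36.0, 25.7 and 27.2 TPM. Both overlapped between groups, with log2 differences of -0.02 ± 0.10 and -0.15 ± 0.11 (SE). The 4 type VI chains, which border the muscle fibre's basement membrane, lay between -0.15 and 0.21. Among chains averaging 5 TPM or more the lowest differences after Col4a2 were those of Col18a1 (-0.14 ± 0.15, SE) and Col7a1 (-0.03 ± 0.10, SE), neither of which passed.

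Weekly prednisone moved no chain in muscle past the threshold: 0 of 26 passed by limma and 0 had an unadjusted p under 0.05, where 0.049% of all genes passed. Of the 26 chains, 22 lay below vehicle, with a median log2 difference of -0.09 against -0.07 over all genes. Col1a1 was lowest among chains averaging 5 TPM or more, at -0.19 ± 0.18, followed by Col18a1 at -0.17 ± 0.15 and Col4a1 at -0.17 ± 0.10 (log2 differences, SE). Col4a1 held 52.5, 53.2 and 52.2 TPM in the weekly libraries, all below the lowest vehicle library of 55.2 TPM, as were the weekly libraries of Col18a1 and Col24a1, and as were those of 19.3% of all genes. Col11a2 lay highest, at 0.29 ± 0.22, and Col7a1 at 0.13 ± 0.10 (SE).

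Set directly against daily mice, weekly mice had lower Col3a1 and Col8a1 in muscle. Col3a1 fell by 1.00 on the log2 scale (SE 0.19, limma, adjusted p = 0.0415) and Col8a1 fell by 0.76 (SE 0.15, limma, adjusted p = 0.0465). These 2 of 26 chains were the only ones to pass, where 0.857% of all genes passed as lower. Without daily 1 neither passed, with adjusted p of 0.0567 for Col3a1 and 0.0752 for Col8a1 by limma. Weekly libraries lay wholly below daily libraries for 6 chains (Col1a1, Col1a2, Col3a1, Col5a2, Col8a1 and Col14a1) and for 8.58% of all genes. Col1a1 differed by -0.82 ± 0.18 (SE, limma, adjusted p = 0.0633) and Col1a2 by -0.65 ± 0.16 (SE, limma, adjusted p = 0.0845).

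**Figure D3:**
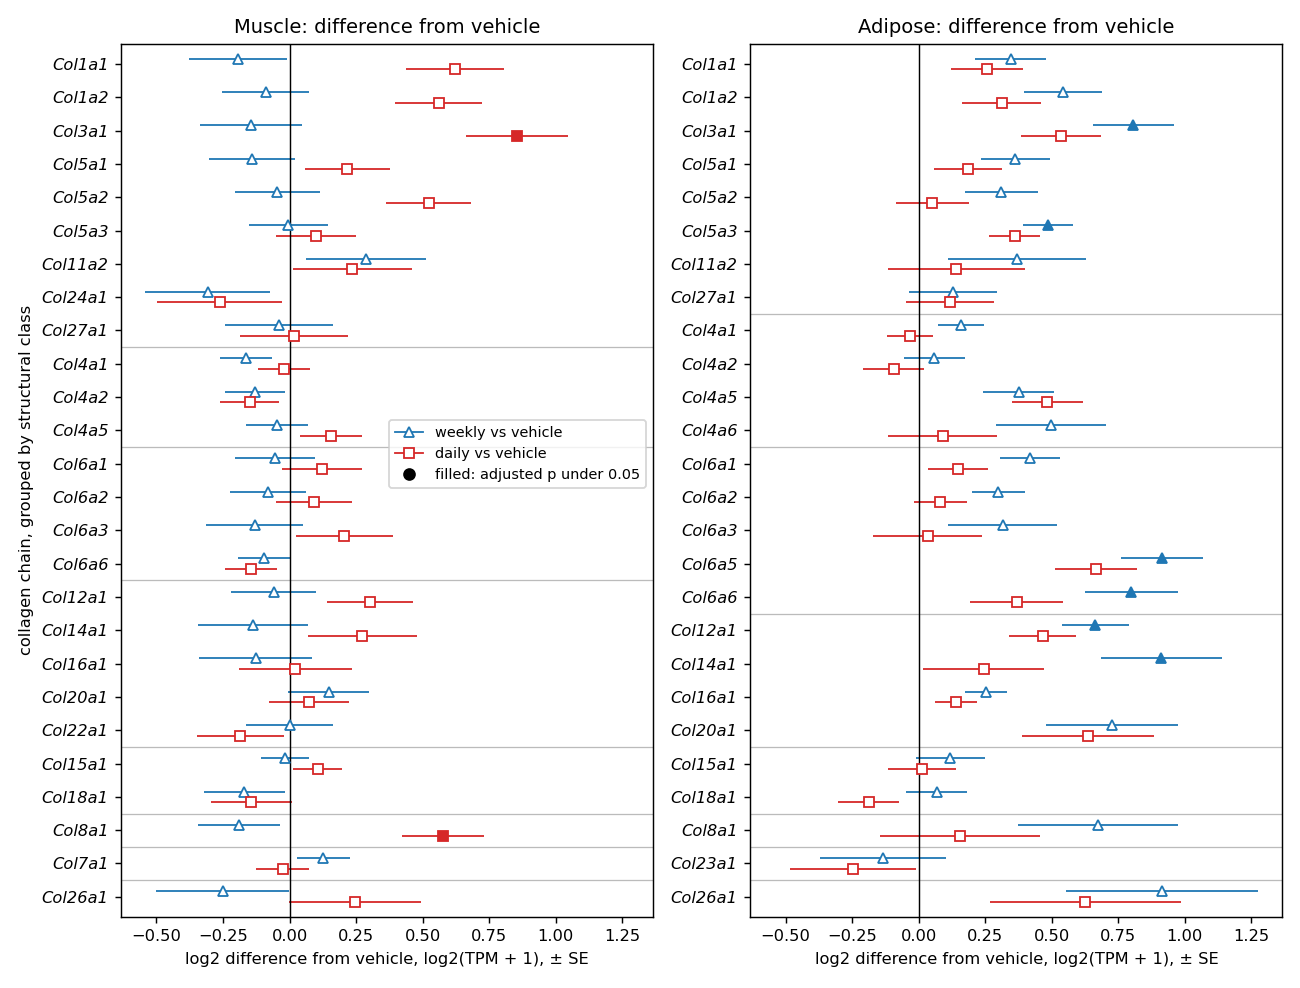
Log2 differences from vehicle on the log2(TPM + 1) scale (x axis, ± SE of limma) for each chain in muscle (left) and adipose tissue (right), with weekly as blue triangles, daily as red squares and filled symbols for an adjusted p under 0.05; grey lines separate structural classes. In muscle only daily Col3a1 and Col8a1 are filled; in adipose tissue 6 weekly symbols are filled and none of the daily ones.

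The muscle calls rested on few libraries. By limma, leaving out vehicle 1 or daily 3 left 0 chains called for daily against vehicle, leaving out vehicle 3, weekly 1 or weekly 3 left Col3a1 alone, and leaving out daily 2 gave 5. All genes called higher numbered 149 without vehicle 1 and 88 without daily 3, against 234 with all libraries. Without daily 1, Col3a1 passed as higher and Col4a2 as lower. The adjusted p of Col3a1 was 0.0665 without vehicle 1 and 0.0712 without daily 3, and Col8a1 passed in 2 of these 9 fits, with a highest adjusted p of 0.114 without vehicle 1. Without the third library of every group 0 passed, where 0.0408% of all genes did as higher, with adjusted p of 0.227 for Col3a1 and 0.256 for Col8a1, while the differences were no smaller for Col3a1 (0.89 on the log2 scale). A fit of the vehicle and daily libraries alone gave 0, with adjusted p of 0.0531 and 0.0776. For weekly against daily, the count was 0 without vehicle 3, without any single weekly library, and without daily 1 or daily 3.

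Markers of other cells moved with the daily muscle samples. Of all genes 1.91% passed as higher and 11.8% as lower. Of 14 macrophage markers 4 passed as higher (Ctss, Lyz2, Mpeg1 and Cd68), and their summed TPM was 410 to 632 in daily muscle against 253 to 369 in vehicle. Of 14 fibroblast and progenitor markers 0 passed as higher and 1, Smoc2, as lower, and the sum was 872 to 1133 TPM against 971 to 1287 TPM. Of 12 mural markers 1, the smooth muscle actin Acta2, passed as higher at 48.8 ± 10.1 TPM against 26.9 ± 3.23 TPM (SD, n = 3), while 5 of 12 lay above 0 and the list's median was -0.01. Mesothelial markers summed to 2.85 to 6.50 TPM in daily muscle and 1.48 to 1.84 TPM in vehicle, with only Msln of 10 above the filter and 3 of 10 at 0 in all muscle libraries. Daily 1 was the highest of the 9 libraries in the collagen share and in the macrophage (632 TPM), mesothelial (6.50 TPM), mural (235 TPM), Schwann (78.2 TPM) and adipocyte (1906 TPM) sums, and held the most genes at 1 TPM (12200). The adipocyte list as a whole went the other way in daily muscle: 0 of 11 markers lay above 0, with a median log2 difference of -0.44. Its sum was 759 to 1906 TPM against 1405 to 1893 TPM in vehicle. Of 12 endothelial markers 2 lay above 0, with a median of -0.11. The part of these cells in the rise of Col3a1 and Col8a1 was not tested.

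In adipose tissue weekly prednisone was compared with vehicle. Col3a1, Col5a3, Col6a5, Col6a6, Col12a1 and Col14a1 rose, which is 2 fibrillar chains, 2 type VI chains and 2 fibril-associated chains. These were 6 of 26 chains passing as higher and 0 as lower (limma, adjusted p under 0.05), where 5.72% of all 14150 genes passed as higher. Of the 26 chains 25 lay above vehicle, with a median log2 difference of 0.37 against 0.13 over all genes. Col4a6 is among them, and its direction follows from the filter, which it passed through the weekly libraries alone; without it 24 of 25 lay above and the median was 0.37. With TMM scaling, which takes the median of all genes to 0.00, the chains' median was 0.26 and 5 passed, without Col14a1. Under it all genes split into 458 higher and 658 lower, against 809 and 243 without it.

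Col3a1 held 435, 339 and 382 TPM in vehicle, 788, 596 and 647 TPM in weekly and 596, 447 and 648 TPM in daily adipose tissue. Weekly and vehicle libraries did not overlap, and weekly overlapped with daily. The log2 difference from vehicle was 0.81 ± 0.15 (SE, limma, adjusted p = 0.0209), with a ratio of mean TPM of 1.75. Col5a3 (chr9:20770050-20815067, minus strand) held 212, 228 and 208 TPM in vehicle, 352, 261 and 300 TPM in weekly and 277, 277 and 277 TPM in daily libraries. The daily libraries lay within the range of the weekly ones, and the weekly mice differed from vehicle by 0.49 ± 0.10 (log2, SE, limma, adjusted p = 0.0233).

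The type VI chains Col6a5 and Col6a6 are encoded next to each other on chromosome 9, on the same strand and 27917 bases apart. Col6a5 (chr9:105856078-105960643) had 34.8, 24.6 and 27.4 TPM in vehicle, 69.6, 46.6 and 50.9 TPM in weekly and 45.3, 45.0 and 48.0 TPM in daily libraries. No treated library reached down to a vehicle library, and Col6a5 rose by 0.91 ± 0.16 in weekly mice (log2, SE, limma, adjusted p = 0.0175). Col6a6 (chr9:105687809-105828160) had 4.71, 4.72 and 4.84 TPM in vehicle, 12.5, 6.86 and 8.50 TPM in weekly and 6.81, 6.02 and 6.48 TPM in daily libraries. Its groups were separated too, with weekly 1 far above the rest, and it rose by 0.80 ± 0.17 (log2, SE, limma, adjusted p = 0.0309). The core type VI chains moved less: Col6a1 by 0.42 ± 0.11 (limma, adjusted p = 0.0516), Col6a2 by 0.30 ± 0.10 (adjusted p = 0.0834) and Col6a3 by 0.32 ± 0.20 (adjusted p = 0.315; log2, SE), none of which passed.

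Both fibril-associated chains sit on the surface of type I fibrils and bind decorin and tenascin family partners. Col12a1 (chr9:79598991-79718831) had 7.37, 8.17 and 7.18 TPM in vehicle, 13.5, 11.02 and 13.3 TPM in weekly and 12.2, 9.17 and 11.3 TPM in daily libraries, and rose by 0.66 ± 0.13 in weekly mice (log2, SE, limma, adjusted p = 0.0215). Col14a1 (chr15:55307750-55520803) had 25.1, 19.7 and 19.4 TPM in vehicle, 46.6, 37.5 and 38.9 TPM in weekly and 32.2, 16.1 and 31.2 TPM in daily libraries. Its weekly libraries lay above all others, while daily 2 lay below vehicle, and it rose by 0.91 ± 0.23 in weekly mice (log2, SE, limma, adjusted p = 0.0446). Counted by the longest coding transcript alone neither passed (limma, adjusted p = 0.128 and 0.306), whereas Col3a1, Col5a3, Col6a5 and Col6a6 did. That transcript held a mean of 39.1% of the Col12a1 sum and 11.3% of the Col14a1 sum in adipose tissue. Col16a1, of the same class, differed by 0.25 ± 0.08 (SE, limma, adjusted p = 0.0746).

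**Figure D4:**
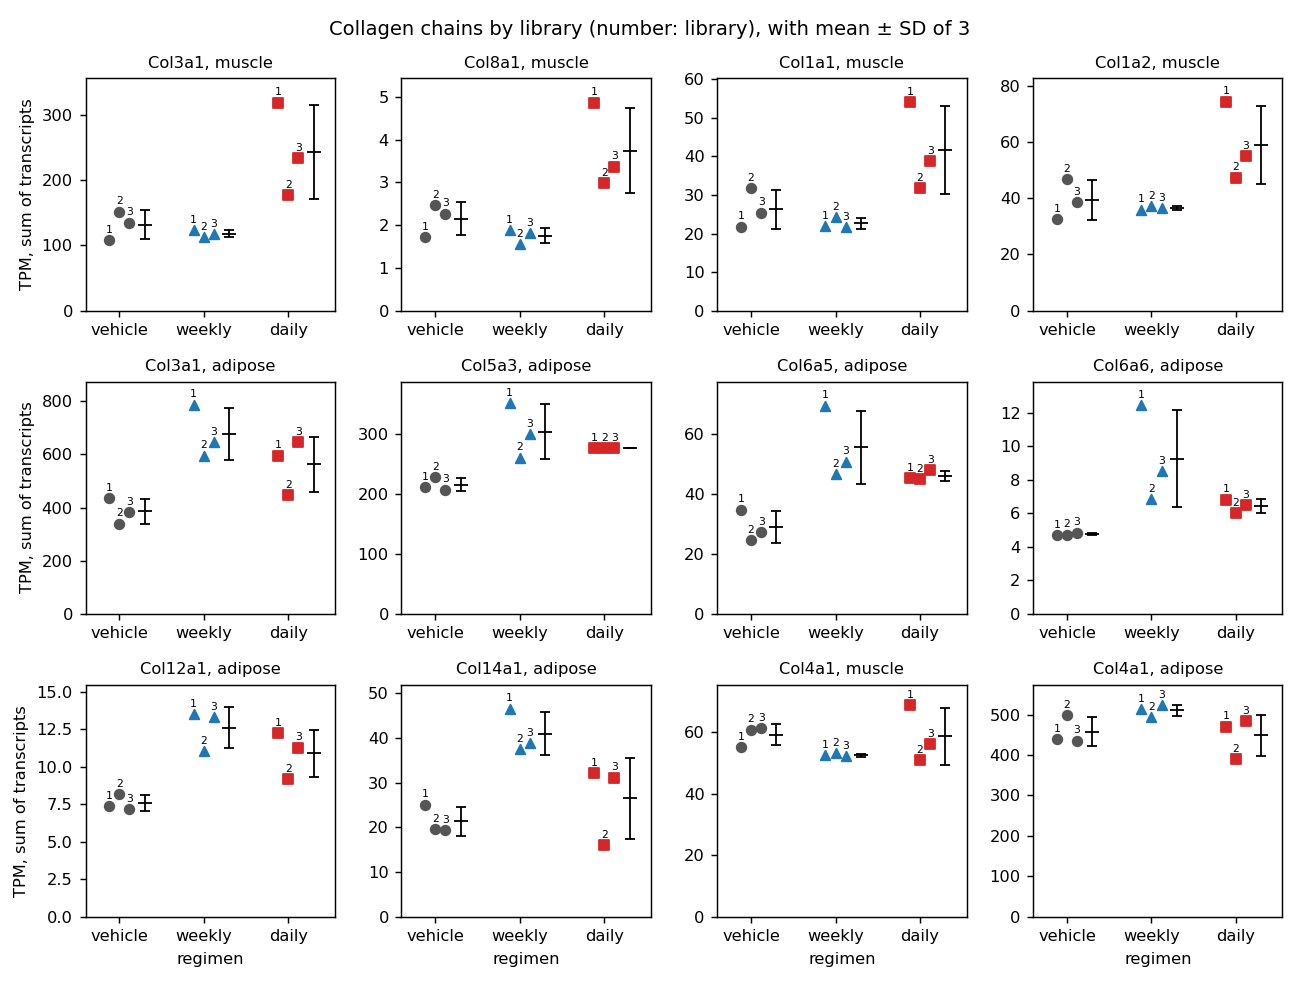
TPM of selected chains in each library (y axis, linear from 0), by regimen; the small number is the library and the black bar the mean ± SD of 3. Daily muscle libraries of Col3a1 and Col8a1 lie above vehicle with daily 1 on top, weekly adipose libraries of Col3a1, Col5a3, Col6a5, Col6a6, Col12a1 and Col14a1 lie above vehicle with weekly 1 on top, and Col4a1 overlaps between vehicle and daily in both tissues.

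Type I collagen and the basement membrane chains did not pass. Col1a2 held 133, 107 and 114 TPM in vehicle and 203, 145 and 171 TPM in weekly adipose tissue (log2 difference 0.54 ± 0.15, SE, limma, adjusted p = 0.0527). Col1a1 held 99.6, 98.1 and 96.8 TPM against 132, 115 and 128 TPM (0.35 ± 0.13, SE, adjusted p = 0.121). Col4a1 at 439, 499 and 436 TPM in vehicle overlapped with 514, 495 and 523 TPM in weekly libraries, and Col4a2 at 274, 328 and 298 TPM with 350, 280 and 308 TPM. Col4a2 had the smallest positive difference of all chains averaging 5 TPM or more, 0.06 ± 0.11, next to Col18a1 at 0.07 ± 0.11 and Col15a1 at 0.12 ± 0.13 (log2, SE). No chain of that abundance lay below vehicle. Weekly libraries lay wholly above vehicle for 14 of 25 chains, leaving out Col4a6 for the reason given, as for 27.6% of all genes.

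Daily prednisone moved no chain in adipose tissue past the threshold: 0 of 26 passed by limma while 6 had an unadjusted p under 0.05, and 0.00707% of all genes passed. Of the 26 chains 22 lay above vehicle, with a median log2 difference of 0.15 against 0.01 over all genes. The daily libraries lay wholly above vehicle for 8 chains, as for 7.66% of all genes: Col3a1, Col4a5, Col5a3, Col6a5, Col6a6, Col12a1, Col16a1 and Col20a1. The largest differences among chains averaging 5 TPM or more were those of Col6a5 (0.67 ± 0.16), Col3a1 (0.54 ± 0.15) and Col4a5 (0.48 ± 0.13, log2, SE), a basement membrane chain at 5.73, 4.54 and 5.17 TPM in vehicle and 8.32, 6.26 and 8.27 TPM in daily libraries. Adjusted p for these by limma was 0.313, 0.332 and 0.332. The lowest were Col18a1 (-0.19 ± 0.11), Col4a2 (-0.09 ± 0.11) and Col4a1 (-0.03 ± 0.09).

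Between weekly and daily mice no chain passed in adipose tissue: 0 of 26 by limma, while 3 had an unadjusted p under 0.05 and 0.311% of all genes passed. Col14a1 lay highest in weekly mice, by 0.67 ± 0.23, followed by Col8a1 at 0.52 ± 0.30 and Col6a6 at 0.43 ± 0.17 (log2, SE, limma, adjusted p = 0.240, 0.403 and 0.279). Col4a5, at -0.11 ± 0.13, was the only chain lower in weekly than in daily mice. The weekly and daily comparisons share the vehicle libraries, so their values for a chain are set side by side only.

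The adipose calls depended on the libraries in the fit. By limma, without vehicle 3 or without weekly 3 no chain passed, without vehicle 1 there were 2, without vehicle 2 or weekly 1 there were 3, and without daily 2 there were 11. All genes called higher numbered 56 without vehicle 3, 58 without weekly 3 and 1206 without daily 2, against 809 with all libraries. Over these 9 fits Col6a5 passed in 7, Col5a3 in 6, Col3a1 and Col12a1 in 5, Col6a6 in 4 and Col14a1 in 1. Their highest adjusted p was 0.0708, 0.0812, 0.0760, 0.0797, 0.0897 and 0.125, without vehicle 3 for all but Col14a1, whose highest was without weekly 1. Without weekly 2, weekly 3 and daily 2, the libraries with muscle fibre RNA, 14 chains passed, and the differences grew to 1.04 for Col3a1, 1.25 for Col6a5 and 1.23 for Col6a6. That fit holds 1 weekly library, weekly 1, the highest one, which is assumed to vary like the other groups. Without the third library of every group 0 passed, where 0.00707% of all genes did as higher, with adjusted p of 0.318 to 0.331 for the 6 chains and differences between 0.46 and 0.94. With no filter on low values Col6a5 alone passed.

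Markers of several cell types were also higher in the weekly adipose group. Against 5.72% of all genes passing as higher, of 15 fibroblast and progenitor markers 11 passed as higher in weekly adipose tissue, among them Clec3b, Cd34, Fbn1 and Scara5, and the list summed to 4876 to 5236 TPM against 3900 to 4840 TPM in vehicle. Of 12 endothelial markers 4 passed as higher (698 to 902 TPM against 624 to 646 TPM), of 15 macrophage markers 4 (2914 to 3484 TPM against 2298 to 3097 TPM), of 10 mesothelial markers 4 (92.4 to 158 TPM against 60.6 to 92.3 TPM), and of 12 mural markers 1. No marker of these lists was at 0 throughout. Within the weekly group the mesothelial sum did not follow collagen. It was 92.4 TPM in weekly 1, the highest in collagen, and 158 TPM in weekly 2, the lowest weekly library in collagen. Of 12 adipocyte markers 0 passed, with sums of 37105 to 37990 TPM against 38778 to 39619 TPM. Their part in the collagen differences was not tested.

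**Figure D5:**
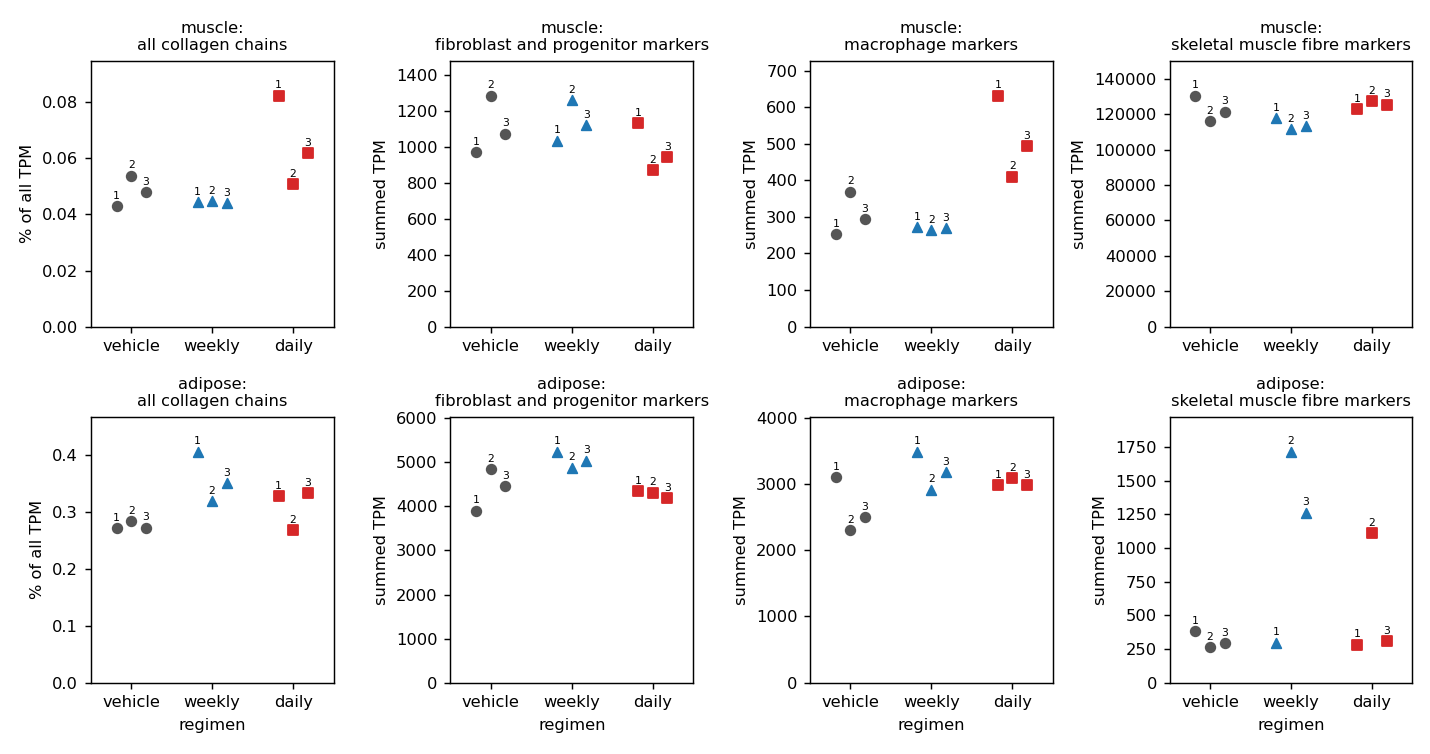
Share of all TPM held by the 44 collagen chains (left column, %) and summed TPM of fibroblast and progenitor, macrophage and skeletal muscle fibre markers, by regimen in muscle (top) and adipose tissue (bottom); each point is 1 library, numbered, on axes from 0. Daily muscle stands above vehicle in the macrophage sum, with daily 1 also highest in collagen, and adipose weekly 2, weekly 3 and daily 2 stand out in muscle fibre markers.

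Each mouse gave both tissues, so the response of muscle could be set against that of adipose tissue within mice. For weekly prednisone all 23 chains tested in both tissues responded lower in muscle than in adipose tissue, with a median difference of -0.47 against -0.19 over all genes. Col12a1 and Col26a1 passed, at -0.72 ± 0.13 (limma, adjusted p = 0.0355) and -1.17 ± 0.24 (limma, adjusted p = 0.0407; log2, SE), where 2.72% of all genes passed as lower. Col14a1 (-1.05 ± 0.26), Col3a1 (-0.95 ± 0.22) and Col6a6 (-0.90 ± 0.21) lay between these and missed the threshold (limma, adjusted p = 0.0584, 0.0536 and 0.0537). With TMM scaling 0 chains passed and the median was -0.28. Leaving out any 1 of the 18 libraries took its mouse out of this fit, so both libraries of a mouse gave the same fit. Counted over the 18, with each distinct fit thus counted for both tissues, Col12a1 passed in 2 fits and Col26a1 in 4. Their highest adjusted p by limma was 0.0985 and 0.122, without weekly 3 of either tissue. For daily prednisone 0 of 23 passed by limma, 3 had an unadjusted p under 0.05, 0.0511% of all genes passed, and the median was 0.01 against -0.09.

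The ratio of chains that share a heterotrimer was compared between regimens. Col1a1 to Col1a2 was 0.668 ± 0.0101 in vehicle, 0.620 ± 0.0291 in weekly and 0.701 ± 0.0279 in daily muscle (SD, n = 3). Col6a1 to Col6a2 was 0.833 ± 0.0241 in vehicle, 0.905 ± 0.0251 in weekly and 0.874 ± 0.0123 in daily adipose tissue (SD, n = 3). Of 18 such comparisons over 3 ratios, 5 had groups that did not overlap: Col1a1 to Col1a2 was lower in weekly than in vehicle and in daily muscle, Col4a1 to Col4a2 lower in weekly than in daily muscle, and Col6a1 to Col6a2 higher in both treated groups than in vehicle adipose tissue. These 5 reached 0.1, the smallest p that a 2-sided exact permutation test of 3 against 3 allows, with an adjusted p of 0.327, so this design could pass none of them.

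The genes that modify, cleave, crosslink and bind collagen were taken as lists. In weekly adipose tissue the fibril-binding proteoglycans and partners had 9 of 13 members higher, where 5.72% of all genes were, with a median log2 difference of 0.50 against 0.13 over all genes. Thrombospondin Thbs1 held 103 ± 6.16 TPM against 34.8 ± 0.882 TPM in vehicle (SD, n = 3), fibronectin Fn1 284 ± 40.7 TPM against 133 ± 9.80 TPM, tenascin Tnxb 46.8 ± 6.92 TPM against 26.99 ± 1.34 TPM and decorin Dcn 879 ± 45.0 TPM against 727 ± 31.9 TPM. Thbs1 rose by 1.54 ± 0.07 (log2, SE, limma, adjusted p = 2.1e-05). Of 7 crosslinking genes 3 rose, all lysyl oxidase relatives: Loxl2 by 0.92, Loxl3 by 0.81 and Loxl1 by 0.42 on the log2 scale (limma, adjusted p = 0.0118, 0.0277 and 0.0196).

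Other lists in weekly adipose tissue stand against the same 5.72% of all genes. The modification list had 3 of 14 higher: the prolyl 4-hydroxylase P4ha1, the prolyl 3-hydroxylase P3h3 and the lysyl hydroxylase Plod2. The chaperone and secretion list had 1 of 10, the collagen chaperone Serpinh1, at 636 ± 39.1 TPM against 537 ± 23.3 TPM (SD, n = 3). The propeptide cleavage list had 2 of 6, the C-proteinase Bmp1 and its enhancer Pcolce. Receptors had 3 of 10, the integrin Itga11, Antxr1 and the discoidin receptor Ddr2, and basement membrane partners 3 of 14, Agrn, Lamc1 and Lama2. Collagen breakdown had 0 of 9 by limma, with a median of 0.05. When single libraries were left out, Thbs1, Fn1 and Itga11 passed in 9 of 9 fits, whereas Serpinh1, P3h3, Plod2 and Pcolce did in 2. In daily adipose tissue Thbs1 alone passed among all 8 lists (limma, adjusted p = 0.0498). It was the only gene to pass there, 0.00707% of all 14150 genes. Thbs1 passed in 3 of 9 fits that left out a library, with an adjusted p of 0.375 by limma without daily 3.

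In daily muscle 1.91% of all genes passed as higher and 11.8% as lower. The small proteoglycans Aspn (24.3 ± 3.50 TPM against 15.3 ± 2.54 TPM in vehicle) and Bgn (61.1 ± 12.4 TPM against 38.4 ± 7.71 TPM, SD, n = 3) were higher, 2 of 15 in their list. Of 9 receptors 1 was higher, Lair1, a collagen receptor of immune cells, at 1.85 ± 0.603 TPM against 0.690 ± 0.0802 TPM (SD, n = 3). Tgm2, a transglutaminase, fell by 0.23 and Colgalt1, a collagen galactosyltransferase, fell by 0.21 on the log2 scale (limma, adjusted p = 0.0143 and 0.0490). Colgalt1 passed in 0 of 9 fits that left out a library, with a highest adjusted p of 0.152 without daily 3, and Tgm2 and Aspn in 8 of 9, failing without daily 3 (0.0683 and 0.0526). Bgn passed in 5 and Lair1 in 4, with a highest adjusted p of 0.0897 without daily 3 and 0.0859 without vehicle 3. In weekly muscle 0 members of the 8 lists passed, where 0.049% of all genes did.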

How the data were processed

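Processed values from 18 libraries of 9 mice were used, 3 for each regimen and tissue; each library is a separate mouse within its tissue, and both tissues come from the same mice, per the labels. The authors deposited TPM per transcript in 1 table. The submitters' processing notes name Trimmomatic, HISAT2, kallisto and mm10 without versions or roles; the annotation is not given in the sources used here. TPM keeps no depth, and reads shared by transcript models are divided by estimate, which affects levels of chains with many short models.

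TPM was summed over transcripts by symbol. Genes at 1 TPM or more in 3 libraries of a tissue were fitted as log2(TPM + 1) in limma 3.58.1 (R 4.3.3, trended empirical Bayes, 3 regimens in 1 fit per tissue), with Benjamini-Hochberg adjustment over all genes tested and a threshold of 0.05. The tissues were compared on each mouse's own difference. Error values of folds are standard errors. The fit was tested on simulated data. Ratios of chains were tested by exact permutation. Tables and figures were made with Python 3.11.15, numpy 2.4.6, pandas 2.3.3 and matplotlib 3.10.9. Transcript models and positions come from GENCODE M21 (GRCm38), to which 103635 of 105129 transcripts and 215 of 216 collagen transcripts matched. RefSeq promoter windows matched 35 collagen genes, of which 20 overlapped no exon.

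Chains named with values were those that passed a test, the 6 most abundant per tissue, the 3 highest and 3 lowest differences among chains averaging 5 TPM or more, and the largest tissue differences; others were named for contrast after their values were seen. The members, lists and tests were chosen with earlier results of these data known. Alternatives were TMM scaling, a pseudocount of 0.1 or 5, quantile normalization, a filter of 5 TPM or none at all, a replicate block, only the 2 groups compared, single transcripts, tissues not paired by mouse, leaving out each library, the third libraries or 3 adipose libraries, and the longest coding transcript, the last chosen after seeing the data.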

Additional observations from a re-analysis of the deposited data

Results flagged for a closer look

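The response to weekly prednisone differed between muscle and adipose tissue for 2 chains, by a test of the difference itself within mice. For Col12a1 the muscle response minus the adipose response was -0.72 on the log2(TPM + 1) scale (limma, adjusted p = 0.0355). For Col26a1 it was -1.17 (limma, adjusted p = 0.0407). Most of the Col26a1 value in both tissues comes from a short model with a retained intron. In adipose tissue Col26a1 lay near the filter, with a vehicle mean of 0.923 TPM and 6 of 9 libraries at 1 TPM or more. Neither passed with TMM scaling, and their cause was not tested.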

How the results depend on the processing

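The 4911 values recomputed cover every chain and comparison tested, and most belong to chains not called in the main fit. Among those of called chains, most of them from the comparison of tissues, no direction reversed. Counts of chains called by limma moved most. For daily against vehicle in muscle, 2 chains became 5 with TMM scaling, 5 with quantile normalization, 4 with a 5 TPM filter, 1 with single transcripts, and 0 with no filter, without the third libraries or with only the 2 groups compared; leaving out 1 library gave 0 to 5. For weekly against daily in muscle, 2 became 1 with a pseudocount of 5 or a 5 TPM filter, and 0 with no filter, without the third libraries, with only the 2 groups, with single transcripts or with the longest coding transcript; leaving out 1 library gave 0 to 5. For weekly against vehicle in adipose tissue, 6 became 1 with no filter, 14 without weekly 2, weekly 3 and daily 2, and 0 without the third libraries or with single transcripts; leaving out 1 library gave 0 to 11. For muscle against adipose tissue, 22 became 34 with no filter and 14 with a 5 TPM filter. For the tissue difference of the weekly response, 2 became 5 with a pseudocount of 5, 1 without pairing by mouse, and 0 with TMM, quantile normalization, a pseudocount of 0.1, no filter, the longest coding transcript, or without the third or the 3 adipose libraries; leaving out 1 library gave 0 to 2. Filters change the number of genes tested, and leaving out libraries the number of samples; otherwise the cause was not tested.

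The labels do not say that replicate numbers mark anything shared between mice of different regimens. Same-numbered libraries had a median correlation of deviations of -0.0304 in muscle (range -0.12 to 0.106) and 0.0295 in adipose tissue (-0.0632 to 0.192). With 9 such pairs per tissue, these values cannot decide whether the numbers mark something shared. With a replicate block the count was 1 for daily and 0 for weekly against daily in muscle, 8 for weekly adipose tissue, 22 between tissues and 0 for the tissue difference of the weekly response. With 3 mice per group and no depth, small differences in low chains may have gone undetected, which was not tested.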
